A study of Mus musculus with 27 samples.

Results

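The 10 genes described here carry out or govern de novo lipogenesis, the making of fatty acids from carbohydrate. They were chosen by name, as the rows of the expression table whose symbol was Acly, Acaca, Acacb, Fasn, Scd1, Elovl6, Me1, Srebf1, Pnpla3 or Thrsp, and 10 of 10 were found among 36333 genes. The samples were RNA-seq libraries of liver, omental adipose tissue and skeletal muscle from male *Mlx*KO mice aged 5 months (n = 4 per tissue) or 20 months (n = 5 per tissue), 27 libraries in all. The mice came from crossing B6.129 mice that bear the allele Gt(ROSA)26Sortm1(cre/ERT2)Tyj with Mlx Flox/Flox mice, so that a tamoxifen-activated Cre (CreER), driven by the ROSA26 promoter that works in most cell types, removes the LoxP-flanked exons of *Mlx*. All groups shared this genotype and had received 5 daily intraperitoneal doses of tamoxifen (75 mg/Kg) after weaning, once they weighed at least 15 g. The excision was therefore body-wide, and a change in 1 tissue cannot be told apart from a response to the loss of Mlx elsewhere. Wild-type libraries were not analysed here, so every comparison below is between ages or tissues of *Mlx*KO mice. The same 4 mice, called A to D here in the order of their numbers, gave all 3 tissues at 5 months, while the 20-month libraries carried a different set of numbers in each tissue. The ages are those of the sample titles, and a supplementary listing of animals whose numbers end alike gives a somewhat younger age for the older group. According to the study's supplement, muscle of such mice kept more of its Mlx expression than liver did, so muscle here is not a tissue without Mlx. Adipose tissue mostly kept more than liver and less than muscle. In that listing, the expression left in adipose tissue and muscle tended to be higher in the older animals. The tissues and ages compared below may therefore differ in how much Mlx was left.

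In de novo lipogenesis, citrate exported from the mitochondrion is split into acetyl-CoA, which is carboxylated to malonyl-CoA and then built into palmitate by fatty acid synthase with electrons from NADPH. Elongation, desaturation and esterification follow, and liver and white adipose tissue are the main sites. The pathway's genes are driven by SREBP-1c, a product of Srebf1 that responds to insulin and sterols, and by ChREBP (Mlxipl), a glucose-sensing factor that binds DNA as a dimer with Mlx. Skeletal muscle makes little fat by this route, but uses malonyl-CoA to restrain the entry of fatty acids into mitochondria.

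By role, Acly (ATP citrate lyase) splits citrate and Me1 (cytosolic malic enzyme) supplies NADPH. Acaca and Acacb are the acetyl-CoA carboxylases: the Acaca enzyme is cytosolic and feeds synthesis, and the Acacb enzyme sits at the mitochondrial surface, where its malonyl-CoA inhibits carnitine palmitoyltransferase. Fasn is fatty acid synthase, Elovl6 lengthens palmitate and Scd1 is stearoyl-CoA desaturase. Srebf1 encodes the SREBP-1 factors, Thrsp encodes a small nuclear and cytosolic protein induced together with lipogenic enzymes, and Pnpla3 encodes a lipid-droplet protein. In the GRCm38.p6 annotation, 4 of the 10 lay on chromosome 11, on which Acly occupied chr11:100476352-100528000 (minus strand), Acaca chr11:84129635-84401651 (plus), Fasn chr11:120805958-120825166 (minus) and Srebf1 chr11:60199084-60224186 (minus). Acacb lay at chr5:114146321-114250761 (plus), Scd1 at chr19:44394450-44407709 (minus), Elovl6 at chr3:129532386-129638495 (plus), Me1 at chr9:86581363-86695914 (minus), Pnpla3 at chr15:84167776-84189521 (plus) and Thrsp at chr7:97412933-97417550 (minus). Part of the transcript sequence of some members also occurs in other genes, and the counting may have split their reads. Of all 50-base words, 30.4% of those of Acaca were shared (most of them with the pseudogene Gm5182), 22.9% of those of Me1 (mostly with Gm7049) and 4.56% of those of Scd1 (with Scd3, Scd2 and Scd4), against 0 for Acly, Acacb and Fasn. Exons of Srebf1 overlapped Rai1, those of Me1 the antisense gene A330041J22Rik and those of Elovl6 the antisense gene Gm35986 on the other strand, and exons of Pnpla3 overlapped Gm49513 on the same strand.

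The promoters of Srebf1, Acacb and Thrsp are shown because these 3 members had the largest called age differences, Srebf1 and Acacb in opposite directions. Each run is the 250 bases before an annotated start, read 5′ to 3′ on the gene's own strand from RefSeq (GRCm38.p6). CCAAT boxes (CCAAT or its reverse complement ATTGG) and GC boxes (GGGCGG or its reverse complement CCGCCC) are in capitals. The Srebf1 runs are chr11:60222582-60222831, chr11:60220628-60220877 and chr11:60210472-60210721 (minus strand, from the 3 annotated starts, each inside the annotated span of the gene). The Acacb run is chr5:114165268-114165517 (plus strand, also a start inside the annotated span of the gene) and the Thrsp run is chr7:97417551-97417800 (minus strand).
Srebf1, first start: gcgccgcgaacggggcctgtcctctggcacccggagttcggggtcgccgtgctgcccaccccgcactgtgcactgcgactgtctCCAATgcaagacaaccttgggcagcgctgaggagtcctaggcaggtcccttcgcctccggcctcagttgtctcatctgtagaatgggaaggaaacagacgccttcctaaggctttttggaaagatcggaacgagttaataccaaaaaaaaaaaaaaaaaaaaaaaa
Srebf1, next start: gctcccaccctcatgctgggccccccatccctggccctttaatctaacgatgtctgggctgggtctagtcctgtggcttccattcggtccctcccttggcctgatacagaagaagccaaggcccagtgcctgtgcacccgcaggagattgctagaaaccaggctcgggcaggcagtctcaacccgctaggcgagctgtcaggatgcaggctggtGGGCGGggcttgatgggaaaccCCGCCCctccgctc
Srebf1, last start: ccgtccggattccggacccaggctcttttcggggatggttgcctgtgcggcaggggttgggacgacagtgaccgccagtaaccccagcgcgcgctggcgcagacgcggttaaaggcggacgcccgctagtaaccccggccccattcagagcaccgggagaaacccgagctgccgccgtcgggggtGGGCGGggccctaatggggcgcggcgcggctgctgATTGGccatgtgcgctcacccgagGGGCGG
Acacb: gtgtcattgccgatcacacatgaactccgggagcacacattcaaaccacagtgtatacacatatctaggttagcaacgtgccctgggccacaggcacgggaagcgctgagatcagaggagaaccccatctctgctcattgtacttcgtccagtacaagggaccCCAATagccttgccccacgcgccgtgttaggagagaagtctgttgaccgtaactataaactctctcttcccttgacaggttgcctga
Thrsp: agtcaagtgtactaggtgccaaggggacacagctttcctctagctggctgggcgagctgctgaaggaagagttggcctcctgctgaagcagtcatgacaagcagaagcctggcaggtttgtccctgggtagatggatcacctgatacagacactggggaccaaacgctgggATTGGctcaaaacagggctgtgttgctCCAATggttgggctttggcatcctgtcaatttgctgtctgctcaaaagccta

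The sequences held no exact match on either strand to the E-box (CACGTG), the sterol response element (TCACNCCAC) or the carbohydrate response element. The same was true of all 12 windows found for 9 members (no window was matched for Scd1), while 6.02%, 1.05% and 0.0274% of 32851 annotated promoters of the same length held these motifs. A CCAAT box was present in 7 of the 12 windows, those of Acacb, Fasn, Me1, Srebf1, Pnpla3 and Thrsp, and in 33.8% of all promoters. A GC box was present in 5 of the 12, those of Acly, Me1, Srebf1 and Pnpla3, and in 32.7% of all promoters. Matches overlapped each other only in Fasn, where a CCAAT and an ATTGG shared bases. The windows of Acaca and Fasn and a window of Me1 also lay inside the annotated spans of their genes. Bases before other starts of the members were not searched. A match describes letters in these windows only, and variant spellings of the motifs were not searched.

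Libraries held 14384695 to 25673919 reads on genes. Values below are the deposited normalised values, counts scaled to library size (CPM) and divided by a factor of each sample, and a log2 difference is between means of log2(value + 1). Levels of different genes are compared only as TPM (transcript levels that add up to a fixed total in each library), computed from the reads and each gene's transcript length. Mlx itself was read in every library, at 24.2 to 32.4 in 5-month liver, 8.20 to 10.97 in 5-month adipose tissue and 7.04 to 11.6 in 5-month muscle, and at 18.8 to 27.8, 8.19 to 13.9 and 9.17 to 11.3 at 20 months. Reads from exons outside the deleted segment count toward these Mlx values, and no library with an intact gene was compared, so they do not check the excision. The labelled tissues carried their markers: summed values of 8 hepatocyte genes were 57784 or more in all livers and at most 3234 elsewhere, those of 8 adipocyte genes 8810 or more in all adipose samples and at most 482 elsewhere, and those of 8 muscle fibre genes 141571 or more in all muscles and at most 906 elsewhere. In bulk tissue, fewer cells of a type and less RNA per cell cannot be told apart.

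Adipose tissue held the most Scd1 mRNA of the 3 tissues by a wide margin. Scd1 alone took 1.25 to 4.21% of all reads in 5-month adipose tissue and 0.706 to 2.74% at 20 months, against 0.0420 to 0.334% in liver and at most 0.0209% in muscle. The other 9 members together took 0.101 to 0.182% of reads in adipose tissue, 0.0373 to 0.0459% in liver and 0.0933 to 0.127% in muscle. Per length, Scd1 was the most abundant member in adipose tissue (means of 17293 TPM at 5 months and 9839 at 20 months) and in liver (571 and 677), and in muscle it came after Acacb and Me1, at 68.0 and 48.2. At 5 months, Me1 was the next most abundant in liver at 62.3, followed by Acly at 31.6 and Acacb at 22.1, and the lowest in liver was Pnpla3 at 0.184. In muscle the leading members at 5 months were Acacb at 212 and Me1 at 197 TPM, while Fasn was at 3.60, Acaca at 5.03 and Elovl6 at 0.438. Fasn was at 62.3 in adipose tissue and 11.8 in liver at the same age.

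**Figure D1:**
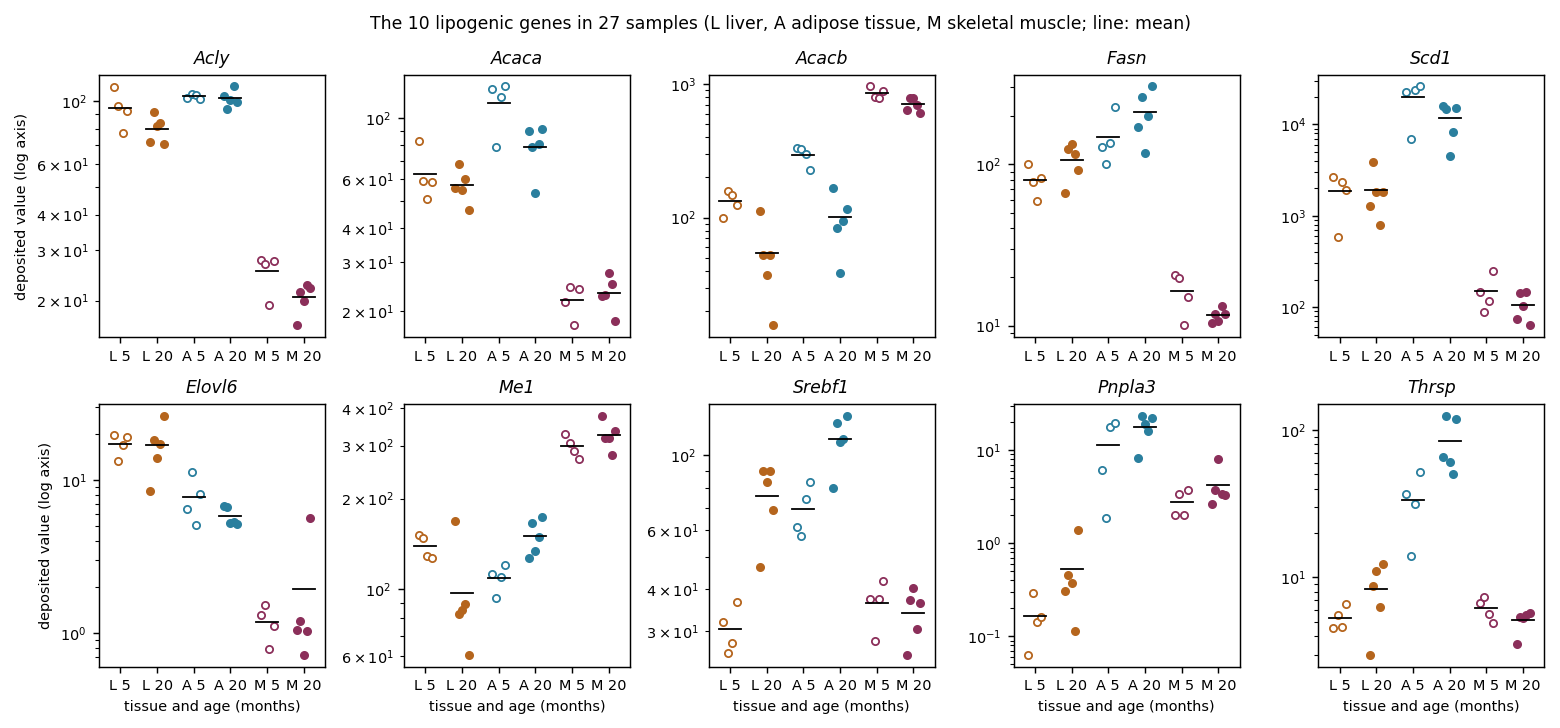
Normalised value (log axis) of each of the 10 genes in every library, by tissue and age, where each point is 1 library and each bar a group mean. Scd1 was highest in adipose tissue, Acacb and Me1 were highest in muscle, and 20-month livers lay above 5-month livers for Srebf1.

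The liver was compared with adipose tissue within each age to show how the 2 lipogenic tissues differ in *Mlx*KO mice. On the deposited scale, most of the pathway was lower in liver than in adipose tissue. At 5 months 8 of the 10 members passed the test (limma, Benjamini-Hochberg adjusted p below 0.05 over 15572 genes), 7 lower and 1 higher in liver, where 76.4% of all genes tested were called, 39.9% lower and 36.5% higher. At 20 months 10 of 10 passed, 9 lower and 1 higher in liver, where 74.5% of genes were called, 38.8% lower and 35.7% higher. The median log2 difference of the members was -0.997 at 5 months and -0.82 at 20 months, and that of all genes was -0.07 and -0.06. Liver and adipose RNA were extracted with different kits according to the labels, so kit and tissue cannot be told apart if the labels are right, while the study's methods name a single kit for every sample.

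Scd1 was 2670, 586, 2321 and 1909 in the livers of mice A, B, C and D, and 22516, 6991, 23775 and 26043 in their adipose tissue. Every adipose value was above every liver value, and mouse B was lowest in both tissues. At 20 months Scd1 was 1274, 3915, 1837, 793 and 1809 in liver and 15956, 14574, 4471, 8283 and 15174 in adipose tissue, again without overlap. The log2 difference of Scd1 was -3.44 (SE 0.52, limma adjusted p = 1.58e-06) at 5 months and -2.66 (SE 0.46, limma adjusted p = 1.33e-05) at 20 months.

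Pnpla3, the droplet protein, was close to absent from liver. It was 0.0636, 0.291, 0.143 and 0.160 in the 5-month livers and 0.305, 0.451, 0.371, 0.114 and 1.403 in the 20-month livers, from 1 to 28 reads per library. In adipose tissue Pnpla3 was 6.06, 1.85, 17.8 and 19.4 at 5 months and 8.34, 23.5, 19.2, 16.007 and 22.4 at 20 months. The groups did not overlap at either age, with log2 differences of -3.01 (SE 0.43, limma adjusted p = 6.23e-07) and -3.60 (SE 0.38, limma adjusted p = 4.26e-09), and the added 1 before the log lowers the size of these 2 differences because the liver values are so small.

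Thrsp, a marker of active lipogenesis in fat and liver, was also far lower in liver. The log2 difference of Thrsp was -2.32 (SE 0.34, limma adjusted p = 1.21e-06) at 5 months and -3.21 (SE 0.31, limma adjusted p = 6.48e-10) at 20 months. Its liver values were 4.52, 5.53, 4.63 and 6.64 at 5 months and 3.002, 8.77, 11.03, 6.30 and 12.3 at 20 months. Its adipose values were 36.8, 13.9, 31.4 and 51.7 at 5 months and 65.0, 125, 60.1, 49.8 and 118 at 20 months. The lowest adipose value at each age, 13.9 in mouse B and 49.8 in replicate 39, was above all the liver values of that age.

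Fasn, which builds palmitate, was lower in liver by a smaller margin. In the 5-month mice, in the same order, it was 100.1, 78.0, 59.2 and 82.8 in liver and 128, 100.5, 136 and 225 in adipose tissue. At 20 months Fasn was 66.0, 125, 134, 116 and 92.4 in liver and 170.3, 263, 118, 199 and 304 in adipose tissue. The groups met without overlap at 5 months, where liver reached 100.1 and adipose tissue began at 100.5, and overlapped at 20 months, through liver replicates 17 and 18 and adipose replicate 38. The log2 difference of Fasn was -0.83 (SE 0.27, limma adjusted p = 0.00700) at 5 months and -0.94 (SE 0.24, limma adjusted p = 0.000999) at 20 months.

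Elovl6, which lengthens palmitate to stearate, was the one member called higher in liver. It was 19.7, 13.5, 16.97 and 19.3 in liver and 6.48, 11.4, 5.11 and 8.12 in adipose tissue of the 5-month mice. At 20 months Elovl6 was 8.50, 18.3, 14.0001, 17.4 and 26.5 in liver and 6.78, 6.74, 5.29, 5.34 and 5.20 in adipose tissue. Liver was above adipose tissue in every library at both ages, with log2 differences of 1.10 (SE 0.32, limma adjusted p = 0.00310) and 1.31 (SE 0.29, limma adjusted p = 0.000204). The direction of this gene depended on the scale: in TPM, Elovl6 averaged 4.30 in liver and 5.79 in adipose tissue at 5 months, and 4.95 and 3.94 at 20 months.

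Srebf1, Acacb and Acaca were lower in liver at both ages. The log2 difference at 5 and 20 months was -1.15 and -0.57 for Srebf1 (limma adjusted p = 6.57e-06 and 0.00401), -1.16 and -0.99 for Acacb (limma adjusted p = 0.00742 and 0.0105), and -0.84 and -0.44 for Acaca (limma adjusted p = 0.000138 and 0.0150). The 20-month call for Acacb was lost without liver replicate 74, with a difference of -0.62 (limma adjusted p = 0.0540). Acly did not pass at 5 months, with a log2 difference of -0.14 (limma adjusted p = 0.277), and was lower in liver at 20 months by 0.35 (-0.35, limma adjusted p = 0.00477). Me1 had a log2 difference of 0.35 (limma adjusted p = 0.0894) at 5 months and of -0.70 (limma adjusted p = 0.000499) at 20 months.

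Since the 4 mice of 5 months gave both tissues, each difference could also be read within a mouse. Liver was below adipose tissue in 4 of 4 mice for Acaca, Acacb, Fasn, Scd1, Srebf1, Pnpla3 and Thrsp, and above it in 4 of 4 for Elovl6 and Me1. Acly was above it in 1 of 4. The differences for Elovl6, Me1 and Acly rest on how libraries are scaled. The 20 most abundant genes took between 9.56 and 29.2% of the reads of a library, and when libraries were scaled on all other genes the median of all genes moved from -0.07 to -0.83 at 5 months and from -0.06 to -0.67 at 20 months. Of the calls at 5 months, 2657 were then higher and 10140 lower in liver, instead of 5687 and 6208, and at 20 months 2956 and 9619 instead of 5564 and 6041. On that scale Elovl6 was at 0.22 (limma adjusted p = 0.560) and 0.63 (limma adjusted p = 0.0615), Me1 at 5 months turned to -0.61 (limma adjusted p = 0.00167) and Acly at 5 months was called lower at -1.10, while the 7 other members were lower at both ages. Relative to the shifted medians of all genes, Elovl6 still lay above the median at both ages and Scd1, Pnpla3 and Thrsp below it.

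**Figure D2:**
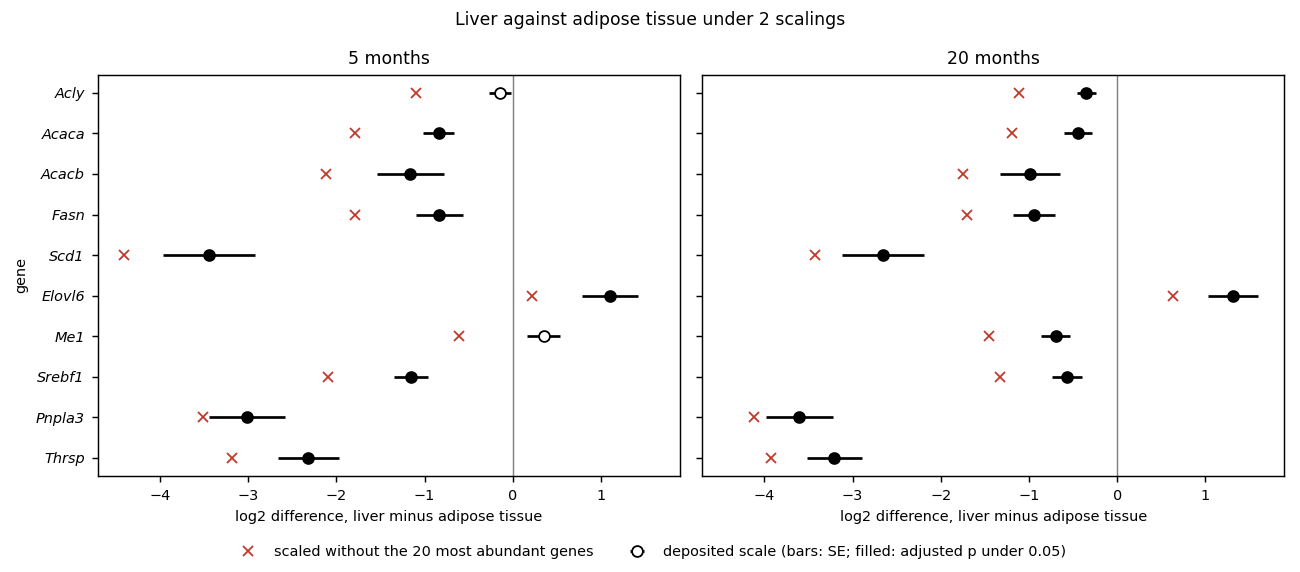
Log2 difference of liver minus adipose tissue for each of the 10 genes at 5 and 20 months, with points for the estimate and bars for 1 standard error. Elovl6 was the one gene above 0 with a called difference at both ages (1.10 and 1.31), and Scd1, Pnpla3 and Thrsp were farthest below 0.

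Skeletal muscle served as a tissue in which fat synthesis is minor. Compared with muscle, adipose tissue had 10 of 10 members called at both ages (72.8% of all genes at 5 months and 76% at 20 months), 8 of them higher in adipose tissue (41.9 and 42.1% of genes) and 2 lower (30.9 and 33.9%). The largest of these adipose against muscle differences was that of Scd1, at log2 6.98 and 6.71, followed by Fasn at 3.08 and 4.004. The 2 lower in adipose tissue were Acacb, at -1.53 and -2.93, and Me1, at -1.45 and -1.12. Against muscle, liver had 8 of 10 members called at 5 months (72.9% of all genes, 36% higher and 36.8% lower) and 9 of 10 at 20 months (77.2%, 39.2% higher and 38.1% lower). Scd1, Elovl6, Fasn, Acly and Acaca were higher in liver at both ages, with Scd1 at 3.53 and 4.05 and Fasn at 2.25 and 3.06, whereas Acacb (-2.70 and -3.92), Me1 (-1.10 and -1.81) and Pnpla3 (-1.67 and -1.75) were lower. Srebf1 was not called between liver and muscle at 5 months (-0.24, limma adjusted p = 0.262) and was higher in liver at 20 months (1.11, limma adjusted p = 1.84e-06). Scaled without the 20 most abundant genes, Srebf1 was called lower in liver at 5 months (-0.50, limma adjusted p = 0.0261). Thrsp was not called between liver and muscle at either age (-0.18, limma adjusted p = 0.656, and 0.50, limma adjusted p = 0.143).

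The 2 ages were compared within each tissue to show how the pathway's mRNA levels differed between young and old *Mlx*KO mice. In liver 2 of the 9 members tested were called (19.8% of 12654 genes tested, 10% higher and 9.79% lower at 20 months), Srebf1 higher and Acacb lower. In adipose tissue 4 of 10 were called (19.1% of 14005 genes, 9.75% higher and 9.35% lower), Srebf1, Me1 and Thrsp higher and Acacb lower. In muscle limma and edgeR called 0 of 10 (19.3% of 12720 genes, 9.13% higher and 10.1% lower), DESeq2 called 1, and 2 had an unadjusted p under 0.05. Pnpla3 in liver was below the expression filter, and an exact two-sided permutation test gave p = 0.111 for its log2 difference of 0.34. The age groups did not overlap for 1 member of 9 in liver, beside 19.1% of all genes tested, for 2 of 10 in adipose tissue, beside 17.4%, and for 0 of 10 in muscle, beside 17.3%. The members' median log2 difference was -0.10 in liver, 0.22 in adipose tissue and -0.16 in muscle, with the median of all genes between 0.00 and 0.02.

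Srebf1, the gene for SREBP-1, was higher at 20 months in both lipogenic tissues. In liver it was 31.9, 25.9, 27.7 and 36.6 at 5 months and 46.6, 89.6, 83.6, 90.2 and 68.8 at 20 months. The liver groups did not overlap, and replicate 16 was the lowest of the older livers. The log2 difference in liver was 1.26 (SE 0.19, limma adjusted p = 0.0074), and it remained called when each library was left out in turn. In adipose tissue Srebf1 was 61.1, 57.8, 74.1 and 83.5 at 5 months and 80.3, 125, 110, 112 and 131 at 20 months. One older sample, replicate 36, fell below the highest younger one, and the log2 difference was 0.68 (SE 0.17, limma adjusted p = 0.0285). It was called in 3 of 9 fits that left out a library, those without mouse C, mouse D or replicate 36, and lay between 0.60 and 0.79 over the 9 (adjusted p 0.0075 to 0.0834). In muscle the values were 37.5, 28.1, 37.3 and 42.3 at 5 months and 25.6, 37.2, 40.4, 30.4 and 36.5 at 20 months, with a log2 difference of -0.10 (SE 0.15, limma adjusted p = 0.676). The muscle groups overlapped.

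Acacb, the carboxylase that restrains mitochondrial fat burning, was lower at 20 months in liver and adipose tissue. In liver it was 99.3, 160, 147 and 124 at 5 months and 111, 53.0, 37.4, 52.5 and 15.6 at 20 months. Replicate 16 overlapped the younger livers and the other 4 older livers were below all of them. The log2 difference was -1.51 (SE 0.42, limma adjusted p = 0.0315), and it passed in 2 of 9 fits that left out a library, those without replicate 16 or replicate 74. Over the 9 fits it ranged from -1.83 to -1.14, with limma adjusted p from 0.0038 to 0.0864.

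In adipose tissue Acacb was 333, 325, 301 and 226 at 5 months and 168, 83.7, 38.8, 95.1 and 117 at 20 months. All 5 older samples were below all 4 younger ones, with a log2 difference of -1.68 (SE 0.35, limma adjusted p = 0.0201). The call was lost without mouse A (-1.62, limma adjusted p = 0.0620) or mouse B (-1.63, limma adjusted p = 0.0550). In muscle, where Acacb was most abundant, it was 957, 796, 780 and 878 at 5 months and 633, 783, 791, 695 and 609 at 20 months. The muscle groups overlapped narrowly, and the log2 difference of -0.28 (SE 0.11) did not pass with limma (adjusted p = 0.0862) and did with DESeq2 (adjusted p = 0.0358).

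Acaca, the carboxylase that feeds synthesis, did not pass in any tissue, at a log2 difference of -0.12 in liver (limma adjusted p = 0.573), -0.53 in adipose tissue (0.0813) and 0.08 in muscle (0.686). Its adipose values were 128, 78.6, 119 and 131 at 5 months and 90.1, 78.4, 53.5, 80.4 and 91.2 at 20 months, where mouse B lay among the older samples. Per length, the ratio of Acacb to Acaca was therefore lower in the older samples. In liver it averaged 2.40 ± 0.81 (SD) over the 4 younger mice and 1.01 ± 0.67 over the 5 older ones, with ranges of 1.30 to 3.11 and 0.365 to 2.15 that overlapped. In adipose tissue it was 2.97 ± 1.09 and 1.33 ± 0.45, with overlapping ranges of 1.87 to 4.48 and 0.785 to 2.02. Muscle stood apart at 42.7 ± 6.25 and 32.9 ± 3.29. No test was run on these ratios, and the shared pseudogene sequence of Acaca may bear on their level.

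**Figure D3:**
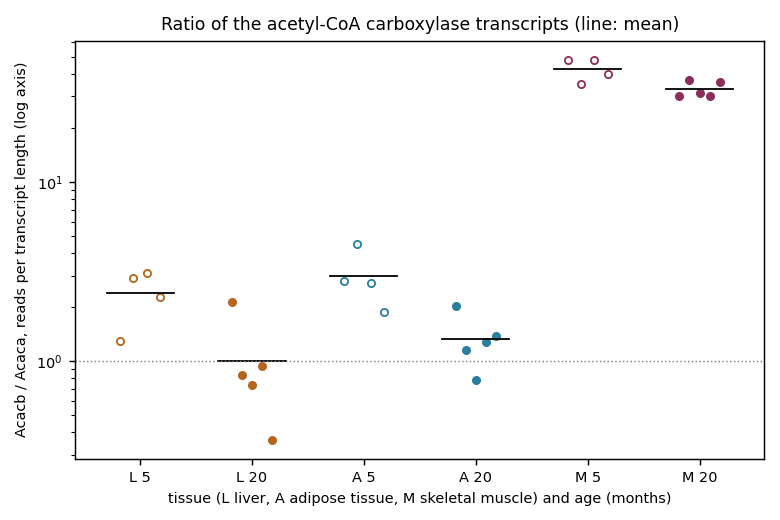
Ratio of Acacb to Acaca, in TPM (log axis), in each library by tissue and age, with a bar at the mean. Means went from 2.40 to 1.01 in liver, from 2.97 to 1.33 in adipose tissue and from 42.7 to 32.9 in muscle between 5 and 20 months, and the groups overlapped in each tissue.

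Me1, a cytosolic source of NADPH, was higher at 20 months in adipose tissue and did not pass in liver. In adipose tissue it was 112, 93.2, 110 and 120 at 5 months and 127, 166, 134, 149 and 174 at 20 months. The older samples were all above the younger ones, by a log2 difference of 0.46 (SE 0.13, limma adjusted p = 0.0391) that passed in 2 of 9 fits that left out a library, those without mouse D or replicate 36 (adjusted p 0.0226 to 0.102 over the 9). In liver it was 151, 148, 129 and 127 at 5 months and 168, 82.8, 85.1, 89.0 and 60.6 at 20 months. Replicate 16 was the highest of all the livers and the other 4 older livers were the lowest. The log2 difference in liver was -0.59 (SE 0.23, limma adjusted p = 0.0915), and without replicate 16 it was -0.81 (limma adjusted p = 0.00277). In muscle Me1 was between 271 and 327 at 5 months and between 280 and 377 at 20 months, with a log2 difference of 0.13 (limma adjusted p = 0.377).

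Thrsp rose in adipose tissue, by a log2 difference of 1.33 (SE 0.39, limma adjusted p = 0.0427). Of the values given above, older replicate 39 at 49.8 was just below younger mouse D at 51.7, and the other older samples were above all the younger ones. The call held in 2 of 9 fits that left out a library, those without mouse D or replicate 36, and the log2 difference lay between 0.98 and 1.58 over the 9 (adjusted p 0.0242 to 0.0959). In liver the log2 difference of Thrsp was 0.45 (limma adjusted p = 0.313), and in muscle, where values were between 3.52 and 7.42, it was -0.23 (limma adjusted p = 0.318).

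The remaining enzymes did not pass in any tissue by limma. Fasn had log2 differences of 0.39 in liver (limma adjusted p = 0.199), 0.50 in adipose tissue (0.230) and -0.42 in muscle (0.114). Its muscle values were 20.5, 19.8, 10.02 and 15.1 at 5 months and 10.4, 11.8, 10.7, 13.2 and 11.8 at 20 months, so that mouse C lay below all the older muscles. Without that mouse the muscle differences of Fasn (-0.63, limma adjusted p = 0.0079) and Acly (-0.41, limma adjusted p = 0.0260) both passed. For Scd1 the liver difference was 0.04 (0.961), the adipose difference -0.74 (0.401) and the muscle difference -0.47 (0.281). Elovl6 stood at -0.10 in liver (0.801), -0.31 in adipose tissue (0.255) and 0.23 in muscle (0.659), Acly at -0.23 in liver (0.195), -0.02 in adipose tissue (0.856) and -0.29 in muscle (0.144), and Pnpla3 at 0.93 in adipose tissue (0.229) and 0.42 in muscle (0.253), the values in parentheses being limma adjusted p.

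Some markers of other cell types also differed between the ages, and 1 older liver stood apart from the others for some members. Summed hepatocyte markers were 57784 to 116232 in the older livers and 131162 to 191052 in the younger ones, without overlap, with the lowest sum in replicate 74. Without replicate 74 the liver calls for Srebf1 and Acacb remained. Summed B cell markers were 9.97 to 19.7 in the older livers and 2.18 to 8.24 in the younger ones, without overlap, and 5 of the 5 tested rose. Erythroid markers, 4 of 5 of which rose, were 953 to 1257 in the older livers and 664 to 842 in the younger ones, and macrophage markers, 3 of 8 of which rose, overlapped at 169 to 651 and 118 to 208. In adipose tissue the sum of 8 macrophage markers, 3 of which rose, was 1137 to 8427 at 20 months and 877 to 1946 at 5 months. There 5 of the 5 B cell markers tested rose, and their sums overlapped, at 18.1 to 189 at 20 months and 5.39 to 21.7 at 5 months. Hepatocyte markers in adipose tissue were 91.7 to 774 at 20 months and 1885 to 3234 at 5 months, without overlap, and 1 of the 6 tested (Cyp2e1) fell. Adipocyte markers overlapped between the ages, at 9517 to 13795 and 8810 to 16608. The part of other cell types in the member differences was not tested. Liver replicate 16 lay with the younger livers for Acacb and Me1, and without it 5 of 9 members were called in liver, the added ones being Me1 (above), Fasn at 0.55 (limma adjusted p = 0.0325) and Thrsp at 0.72 (limma adjusted p = 0.0237). The share of all genes called in that fit is not given here, so this gain is not read as particular to the members.

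Whether an age difference itself differed between tissues was tested with interaction terms over all 27 libraries. Between liver and adipose tissue 1 of 10 members was called (15.6% of genes, 8.59% higher and 6.97% lower), Me1, whose age difference was lower in liver by 1.05 (-1.05, limma adjusted p = 0.0062), and which was called in 18 of 18 fits that left out a library. For Srebf1 the liver minus adipose interaction was 0.58 (limma adjusted p = 0.124), and for Acacb it was 0.17 (limma adjusted p = 0.851). Between liver and muscle 2 were called (17.5% of genes, 9.35% higher and 8.19% lower), Srebf1 at 1.35 (limma adjusted p = 0.00107) and Me1 at -0.72 (limma adjusted p = 0.0466). Srebf1 kept its call in 18 of 18 such fits and Me1 in 3 of 18, those without liver replicate 16, the muscle of mouse A or muscle replicate 59. Between adipose tissue and muscle 2 were called (14.7% of genes, 8.34% higher and 6.34% lower), Thrsp at 1.56 (limma adjusted p = 0.0242) and Srebf1 at 0.77 (limma adjusted p = 0.0430). Thrsp was lost without mouse B, at 1.21 (limma adjusted p = 0.0688) when its adipose sample was left out and 1.48 (limma adjusted p = 0.0503) when its muscle was, and Srebf1 was called in 6 of 18 such fits (0.68 to 0.89, adjusted p 0.0141 to 0.0979).

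Of all genes tested by age, 10% were called higher and 9.79% lower at 20 months in liver. These shares were 9.75 and 9.35% in adipose tissue and 9.13 and 10.1% in muscle. Among 16 regulators of the pathway, 4 rose and 3 fell in liver with age (median log2 difference 0.16). Insig1, an SREBP target that holds SREBP precursors in the endoplasmic reticulum, rose by 1.45 (limma adjusted p = 0.0056), from 68.6 ± 6.69 (SD, n = 4) to 196 ± 53.0 (SD, n = 5), while its relative Insig2 fell by 1.37 (limma adjusted p = 0.0116). Mlxipl, which encodes ChREBP, rose in liver by 0.78 (limma adjusted p = 0.0089), and Pparg, a driver of fat storage genes, rose by 1.06 (limma adjusted p = 0.0119). In adipose tissue 2 of 16 rose and 2 fell (median -0.03): Insig1 rose by 0.79 (limma adjusted p = 0.0120), Usf1 also rose, Mlxipl fell by 0.77 (limma adjusted p = 0.0330) and Pparg fell by 0.61 (limma adjusted p = 0.0464). The calls for Insig1 in both tissues and Mlxipl in liver were kept when each library was left out in turn, and that for Mlxipl in adipose tissue was lost in 4 of 9 such fits, without mouse A, mouse B, replicate 39 or replicate 40. The age difference of Mlxipl was higher in liver than in adipose tissue by 1.55 (limma adjusted p = 0.000526). In muscle 0 rose and 2 fell (median 0.12), Mid1ip1, which encodes a partner of acetyl-CoA carboxylase, by 0.60 (limma adjusted p = 0.0073) and Mlxip, which encodes the glucose sensor MondoA, by 0.54 (limma adjusted p = 0.0384). The Mlxip call was lost in 6 of 9 fits that left out a library, those without mouse A, mouse B or replicate 56, 57, 59 or 60 (adjusted p 0.0636 to 0.0948), and when libraries were scaled without the 20 most abundant genes (-0.46, limma adjusted p = 0.0673). Mlx did not pass in any tissue, at -0.28 in liver, 0.19 in adipose tissue and 0.13 in muscle (limma adjusted p = 0.168, 0.349 and 0.503).

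The enzymes that supply the pathway were counted in the same way, and their counts stand beside the same shares of all genes. Of 12 genes for citrate, acetate and NADPH supply, 0 rose and 1 fell in liver. In adipose tissue 3 rose and 1 fell: Idh1, which makes cytosolic NADPH, rose by 1.09 (limma adjusted p = 0.0260), Pgls of the pentose phosphate pathway rose by 0.77 (limma adjusted p = 0.0330), Acss2 rose, and Aacs, which activates acetoacetate, fell by 1.80, from 134 ± 32.5 (SD, n = 4) to 37.2 ± 5.55 (SD, n = 5; limma adjusted p = 0.0018). In muscle 2 rose and 1 fell, with Acss2 up by 0.42, Mdh1 up by 0.30 and G6pdx down by 0.58 (-0.58). Of the genes for sugar entry, 4 of 9 tested rose and 1 fell in liver, with the glucose transporter gene Slc2a2 up by 1.74 (limma adjusted p = 0.0207) and Hk2, a hexokinase gene, up by 1.27. In adipose tissue 2 of 8 rose, Slc2a4, the insulin-responsive glucose transporter gene, by 0.98 and Pfkl by 0.73, and in muscle 0 of 8 passed by limma or edgeR and 1 by DESeq2, with 3 at an unadjusted p under 0.05.

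Downstream of palmitate, 0 of 13 elongation and desaturation genes rose and 1 fell in liver (Hacd3, by 0.47), 2 of 12 rose and 2 fell in adipose tissue, with Fads2, a polyunsaturated fatty acid desaturase, down by 1.56 (-1.56), Acsl5 up by 0.64 and Tecr up by 0.57, and 0 of 11 rose and 3 fell in muscle, Hacd3 by 0.56, Elovl1 by 0.55 and Fads1 by 0.49. Of 12 genes for glycerolipid synthesis, 0 rose and 2 fell in liver, Gpam by 0.70 and Dgat1 by 0.51. Gpam, the mitochondrial glycerol phosphate acyltransferase, also fell in adipose tissue, by 1.39 (limma adjusted p = 0.0211), and rose in muscle by 1.11 (limma adjusted p = 0.0057). In adipose tissue 1 of 12 rose and 2 fell: Dgat2, which makes triglyceride from diglyceride, rose by 2.67 (limma adjusted p = 0.0200), from 53.7 ± 35.5 (SD, n = 4) to 298 ± 113 (SD, n = 5), and Lpin3 fell by 0.98. In muscle 1 of 10 rose and 3 fell, with Lpin2 lower by 1.19 (-1.19) and Lpin3 by 1.06 (-1.06). Of 10 lipolysis and droplet genes, 1 rose and 2 fell in liver, where the droplet genes Plin5 and Cidec fell by 1.52 and 1.79 and Cidea rose by 0.94. In adipose tissue Cidea rose by 1.43 and Pnpla2, the main triglyceride lipase, fell by 0.77, and in muscle 1 rose (Abhd5, by 0.36) and 2 fell (Plin4 by 0.82 and Pnpla2 by 0.65).

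Another 9 genes concern the malonyl-CoA brake that Acacb serves and the AMP-activated kinase (AMPK) that inhibits both carboxylases. In liver 0 rose and 2 fell, Prkaa2, an AMPK catalytic subunit, by 0.62 (limma adjusted p = 0.0169) and Cpt1a, the liver carnitine palmitoyltransferase, by 0.43 (limma adjusted p = 0.0495). In adipose tissue 1 rose, Cpt1b, by 1.60 (limma adjusted p = 0.0264), and in muscle Prkaa2 rose by 0.45 and Prkaa1 fell by 0.37. The age counts of these pathway lists are small. They stand beside the 19.8% of all genes called by age in liver, 19.1% in adipose tissue and 19.3% in muscle. In 104 of 189 counts, each list with each library left out, they moved by over 1.5 times or to or from 0.

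Between liver and adipose tissue, pathway genes outside the 10 members were called in both directions, and the split rests on how libraries are scaled. Of the 16 regulators 10 were higher and 3 lower in liver at 5 months, and 9 and 3 at 20 months. Insig2 was higher by 4.31 and 3.46 and Scap, the SREBP escort, by 2.15 and 2.07, whereas Pparg was lower (-3.53 and -1.86) and so was Mlxip (-2.44 and -2.003). Mlxipl was higher in liver by 0.88 and 2.43, and Insig1 by 0.86 and 1.52. Mid1ip1 was lower in liver at 5 months (-1.38) and did not pass at 20 months (-0.25, limma adjusted p = 0.327). Of the 12 supply genes 6 were higher and 4 lower at 5 months, and 5 and 6 at 20 months, led by Idh1 (2.81 and 1.55) and the citrate carrier Slc25a1 (1.95 and 1.74) on the high side and G6pdx, the entry enzyme of the pentose phosphate pathway, on the low side (-4.67 and -4.79), with Aacs (-4.36 and -1.75).

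Of 14 elongation and desaturation genes, 10 were higher and 2 lower in liver at 5 months and 11 and 1 at 20 months, where Elovl2 (8.77 and 8.24) and Elovl3 (7.81 and 6.48) stood highest and Scd2, a relative of Scd1, lowest (-2.93 and -2.27). Sugar entry genes were split 7 higher to 2 lower and 6 to 3, with Slc2a4 (-4.45 and -5.40) and Hk2 (-4.16 and -2.45) lower in liver. Glycerolipid genes were split 6 to 4 and 6 to 3, with Lpin2 (4.91 and 3.996) and Agpat2 (2.79 and 2.12) higher and Lpin1 (-3.27 and -3.25) and Agpat1 (-1.68 and -1.48) lower. Lipolysis and droplet genes were split 3 to 6 and 2 to 8, with Hsd17b13 (9.61 and 8.79) and Plin5 (4.91 and 2.83) higher and Plin1 (-7.50 and -9.11) and Plin4 (-6.41 and -5.99) lower. AMPK and malonyl-CoA genes were split 7 to 2 at both ages, with Cpt1a (3.61 and 2.65) and Prkaa2 (3.37 and 3.35) higher and Prkab2 (-3.30 and -2.07) and Prkaa1 (-1.69 and -1.55) lower. Adipocyte markers are among these genes, since Plin1 coats the adipocyte droplet. These counts stand beside the 36.5% higher and 39.9% lower of all genes at 5 months and the 35.7% and 38.8% at 20 months. When libraries were scaled without the 20 most abundant genes, the split of higher to lower in liver at 5 and 20 months became 3 to 8 and 6 to 7 for the regulators, 6 to 6 and 4 to 7 for the supply genes, 5 to 4 and 6 to 4 for sugar entry, 9 to 3 and 8 to 2 for elongation and desaturation, 5 to 6 and 5 to 4 for glycerolipid synthesis, 2 to 8 at both ages for lipolysis and droplets, and 4 to 4 and 4 to 3 for AMPK and malonyl-CoA. With that scaling Mlxipl (-0.069, limma adjusted p = 0.779) and Insig1 (-0.090, limma adjusted p = 0.664) turned at 5 months, Mid1ip1 at 20 months passed (-0.99, limma adjusted p = 0.000645), and the other genes named here kept their sign.

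Over all 27 libraries, which fall into 3 tissues, the genes whose log2 values followed Fasn most closely were 4930402H24Rik, Tkt, Sh3bgrl, Ppm1m and Cfl1, with Pearson correlations of 0.96 to 0.97. Among members Acly stood at 0.96, Scd1 and Acaca at 0.93, Srebf1 at 0.77, Thrsp at 0.73, Elovl6 at 0.71, Pnpla3 at 0.24, Acacb at -0.75 and Me1 at -0.80, so that these values mostly order the tissues. Within a tissue, with each age's mean removed, the genes closest to Fasn were Dtx1 and Stat5a in liver (0.95 and 0.94, 9 libraries), Elp4 and Lmntd1 in adipose tissue (0.98 both) and Cbl and Scn2a1 in muscle (0.98 and 0.97). Of the members, Srebf1 and Acly followed Fasn in liver (0.84 and 0.83), Me1 and Thrsp in adipose tissue (0.88 and 0.80) and Acly in muscle (0.81). Over all pairs of members the median correlation was 0.21 in liver, 0.24 in adipose tissue and 0.20 in muscle, from -0.91 for Me1 with Thrsp to 0.91 for Acly with Acaca in liver, and up to 0.95 for Acaca with Scd1 in adipose tissue. These are descriptions over libraries that share a scale factor, with no test.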

How the data were processed

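RNA was extracted with an RNeasy kit from liver and a kit for lipid-rich tissue from adipose tissue and muscle, per the labels, and poly-A, strand-specific libraries were sequenced on a NovaSeq. The authors counted reads per gene with CLC Genomics Workbench. The submitters' processing notes name GRCm38.p6 and mm10, and the genome used for counting is not given in the sources used here. The deposited values are a normalised signal, CPM divided by a factor of each sample. Each value was a whole number of steps of 1 read in 100% of cases (tolerance 0.05), so reads could be recovered. That factor sets the level of one tissue against another: 1 read was worth 0.0234 to 0.0389 in adipose tissue, 0.0501 to 0.0800 in liver and 0.0652 to 0.0806 in muscle.

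Groups were taken from the sample titles, and replicates are separate animals by number. Values were analysed as log2(value + 1) with limma 3.58.1 in R 4.3.3 (moderated linear model with a variance trend, Benjamini-Hochberg adjustment over all genes tested, threshold 0.05). Each age comparison used the 2 groups of that tissue and genes that reached 1 in 4 or more libraries, and tissue comparisons and interactions used all 27 libraries. The design had foreseen normalised values, and since reads were recovered, edgeR 4.0.16 (quasi-likelihood test) and DESeq2 1.42.0 were run on them as alternatives, together with other pseudocounts, filters and scalings, sample weights and the omission of each library. Exact permutation tests over all 126 ways of assigning the samples were two-sided and could give no p under 0.00794. TPM used the longest transcript of each gene.

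No 2 libraries were identical: the chi-square per degree of freedom between replicates was 9.81 to 217.5 over 48 pairs. Libraries of 1 mouse share its number in the sample names at 5 months. Their deviations from the group means correlated at 0.136 on average over 12 pairs (-0.017 to 0.294, over 0.1 in 7 pairs), and a fit with the mouse as a block was run as an alternative.

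The members, the other gene lists and the tests were chosen with earlier results of these data known. The genes named were all members, a few fixed regulators, from each pathway list the 3 called genes with the largest age difference per tissue and the 2 highest and lowest called at both ages between liver and adipose tissue, and the genes most like Fasn. A few called genes outside that rule (Usf1, and Acss2 in adipose tissue) were named after their values were seen. Some genes that the rule named are not reported here.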

Additional observations from a re-analysis of the deposited data

Results flagged for a closer look

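Of 60 groups of 4 or 5 libraries, 6 held a library that stood far from the others (a gap to its nearest neighbour above the 95% critical value of Dixon's test), where chance gives about 1 in 20. These were Scd1 in adipose tissue of 5-month mouse B, at a normalised value of 6991 where the other 3 were 22516 or above, Acaca in 20-month adipose replicate 38 (53.5), Acly in muscle of 5-month mouse C (19.3), Elovl6 in 20-month muscle replicate 60 (5.70, with the other 4 at 0.723 to 1.20), Pnpla3 in 20-month muscle replicate 58 (8.10) and Thrsp in 20-month muscle replicate 56 (3.52).

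The age difference of 3 members differed between tissues, in 5 of 30 interactions tested. This is near the rate of all genes. Of those, 15.6% were called for liver minus adipose tissue, 17.5% for liver minus muscle and 14.7% for adipose tissue minus muscle. The log2 age difference of Me1 was lower in liver than in adipose tissue by 1.05 (-1.05, limma adjusted p = 0.0062) and than in muscle by 0.72 (-0.72, limma adjusted p = 0.0466). That of Srebf1 was higher than in muscle by 1.35 in liver (limma adjusted p = 0.00107) and by 0.77 in adipose tissue (limma adjusted p = 0.0430), and that of Thrsp was higher in adipose tissue than in muscle by 1.56 (limma adjusted p = 0.0242).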

How the results depend on the processing

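Counts of members called by age were 2 in liver, 4 in adipose tissue and 0 in muscle. They became 1 and 2 with no filter in liver and adipose tissue, 4 and 7 with sample weights, and 1 in muscle with DESeq2. Without 1 library the liver count was 1 to 5, the adipose count 0 to 4 and the muscle count 0 to 2. Tissue counts moved less: 8 to 9 between liver and adipose tissue at 5 months and 9 to 10 at 20 months, 8 to 9 and 9 to 10 between liver and muscle, and 10 to 10 between adipose tissue and muscle. Of the interactions, liver minus adipose (1 member) gave 2 when scaled without the 20 most abundant genes, 4 with sample weights and 1 to 2 without 1 library. Liver minus muscle (2) gave 1 with no filter, median-of-ratios scaling, no variance trend, scaling without the 20 most abundant genes, edgeR or DESeq2, 4 with sample weights and 1 to 4 without 1 library. Adipose minus muscle (2) gave 1 with a pseudocount of 0.1, no filter or edgeR, 5 with sample weights and 1 to 3 without 1 library. The share of all genes called in each of these other fits is not given here. A larger count in such a fit is therefore not read as particular to the members.

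The mouse as a block for pairing the 5-month tissues left the counts at 8 and 10 (liver against adipose tissue), 8 and 9 (liver against muscle), 10 and 10 (adipose tissue against muscle), and 1, 2 and 2 for the interactions, and changed no other call. Scaling without the 20 most abundant genes moved the median of all genes by age from 0.00 to 0.16 in liver (2076 higher and 463 lower calls instead of 1269 and 1239) and from 0.02 to 0.09 in muscle (1847 and 975 instead of 1161 and 1290), while Srebf1 (1.42, limma adjusted p = 0.0051) and Acacb (-1.33, limma adjusted p = 0.0336) stayed called in liver. Between adipose tissue and muscle it moved the median to 0.73 and 0.62. In the adipose minus muscle interaction it ended the call for Srebf1 (0.67, limma adjusted p = 0.0781) and added Acaca (-0.71, 0.0424) and Acacb (-1.51, 0.0368).

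The signs that turned among the log2 differences of the members and of Mlxip by age were of differences that did not pass as reported. With that scaling these were Acaca (0.048) and Elovl6 (0.066) in liver, Me1 between liver and adipose tissue at 5 months (-0.61) and the Fasn liver minus adipose interaction (0.081). With sample weights they were Acaca (0.030) and Scd1 (-0.10) in liver and Acly in adipose tissue (0.019). The Pnpla3 liver minus adipose interaction turned to 1.04 with edgeR and 1.02 with DESeq2, and its liver minus muscle interaction to 0.056 and 0.48 with pseudocounts of 0.5 and 0.1, 1.10 with edgeR and 1.12 with DESeq2. Without 1 library, ranges that crossed 0 were, in liver, Acaca -0.22 to 0.012, Elovl6 -0.28 to 0.11, Scd1 -0.44 to 0.31 and Mlxip -0.36 to 0.067. In muscle they were Acaca -0.013 to 0.16, Elovl6 -0.12 to 0.37 and Srebf1 -0.21 to 0.00023, and in adipose tissue Acly -0.058 to 0.0066. For interactions they were Acacb -0.15 to 0.54 and Fasn -0.34 to 0.048 (liver minus adipose), Acly -0.035 to 0.17, Elovl6 -0.51 to 0.020 and Pnpla3 -0.25 to 0.14 (liver minus muscle), and Pnpla3 -0.060 to 0.89 and Scd1 -0.72 to 0.040 (adipose minus muscle). The cause was not tested. Depth limits Pnpla3 in liver (1 to 28 reads).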
